A study of Homo sapiens with 4 samples.

Results

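The genes described here are the immunoproteasome and class I peptide loading genes PSMB8, PSMB9, PSMB10, PSME1, PSME2, TAP1, TAP2, B2M, HLA-B and HLA-C. They were taken as a fixed list of 10 symbols, and a probe set was used if the platform annotation gave it 1 of these symbols and no other. That rule found 19 probe sets for 9 of the 10 genes, out of 19740 named genes on the array. PSME2 had no probe set of its own, because its probe set also carries the symbol of a microRNA gene, so it has no value in the results. The study measured total RNA from 2 human lung adenocarcinoma lines, CL1-0 and the more invasive CL1-5 derived from it, on 4 one-colour Affymetrix arrays, 1 for each group. CL1-0 carried either an empty vector or a vector for PSAT1, phosphoserine aminotransferase of serine synthesis. CL1-5 carried either a non-silencing short hairpin or a hairpin against PSAT1. All 4 cultures were stably transduced and held in puromycin for 2 weeks, per the labels, which do not say whether they are clones or pools.

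The proteasome cuts cellular proteins into peptides. Interferons induce 3 catalytic subunits, PSMB8, PSMB9 and PSMB10, which replace PSMB5, PSMB6 and PSMB7 in newly built particles and favour the peptide ends that class I molecules bind. PSME1 and PSME2 form the PA28 activator that caps the particle, TAP1 and TAP2 form the transporter that carries peptides into the endoplasmic reticulum, and B2M is the light chain that pairs with heavy chains such as HLA-B and HLA-C at the cell surface. Tumour cells that lower these genes show fewer peptides to cytotoxic T cells.

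Sequences around the starts of these genes are shown because interferon control is known to act through promoter elements. RefSeq promoter windows (GRCh38.p14, from 250 bases before to 50 after each start) were present for all 10 genes, as 12 windows. The interferon-stimulated response element was searched on both strands as GAAANNGAA. It was found in 7 of the 12 windows and 7 of the 10 genes, against 8.11% of all 35116 windows and 9.86% of all 27305 genes. A match is a description of letters and not a shown binding site. The stretches below are written 5′ to 3′ along the gene's strand with the match in capitals. They come from chr6:32844028-32844075 (minus strand) for PSMB8, chr6:32853798-32853862 (minus) for TAP1, chr6:32838764-32838822 (minus) for TAP2, chr16:67936838-67936896 (minus) for PSMB10, chr14:24136175-24136213 (plus) for PSME1 and chr15:44711348-44711412 (plus) for B2M.
PSMB8: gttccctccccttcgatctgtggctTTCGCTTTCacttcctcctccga
TAP1: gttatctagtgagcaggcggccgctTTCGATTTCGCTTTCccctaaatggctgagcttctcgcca
TAP2: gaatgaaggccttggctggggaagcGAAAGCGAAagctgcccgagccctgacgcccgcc
PSMB10: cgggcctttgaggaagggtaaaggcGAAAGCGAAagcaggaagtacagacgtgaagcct
PSME1: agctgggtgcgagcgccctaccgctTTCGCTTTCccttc
B2M: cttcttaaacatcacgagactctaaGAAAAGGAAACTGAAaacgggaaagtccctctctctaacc

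TAP1 and B2M each held 2 matches that overlap. PSMB8 and TAP1 each have a pair of windows, with the match in one of them, which for PSMB8 lies across the start. The PSME1 match lies downstream, from base 7 counted from the start. The PSMB9 window held none. PSMB9 and TAP1 lie head to head with 487 bases between their starts, and the TAP1 matches fall in that gap, 355 bases from the PSMB9 start at their nearer edge. The gamma-activated site, searched as TTCNNNGAA, was in 1 window each of PSMB8 and TAP1, against 7.66% of all windows. The HLA-B and HLA-C windows held no match to either motif as searched, which does not show that they lack such an element. They are shown with their match to the NF-kB consensus, which was also found for TAP1 and B2M and in 11.3% of all windows. The stretches, with that match in capitals, are chr6:31357306-31357381 (minus) for HLA-B, where 2 matches overlap by all but 1 base and read as matches on both strands, and chr6:31272215-31272289 (minus) for HLA-C.
HLA-B: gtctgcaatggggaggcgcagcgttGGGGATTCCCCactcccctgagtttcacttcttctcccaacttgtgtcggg
HLA-C: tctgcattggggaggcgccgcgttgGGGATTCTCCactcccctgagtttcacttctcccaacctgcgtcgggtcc

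The values are MAS5 signals on a linear scale. Signals below a floor of 49.0, the median of all non-control probe sets, were set to it before log2 ratios were taken, and a gene was called measured in a comparison when either of its arrays exceeded the floor. With 1 array per group there is no replicate and no test, so "higher" and "lower" stand for differences of at least 2-fold and nothing more. Where a gene had several probe sets, the brightest stood for it, and the others are given beside it. Probe sets of the same gene scattered around their mean log2 ratio with an SD of 0.302 in the CL1-0 pair and 0.179 in the CL1-5 pair. In a bulk culture, fewer cells expressing a gene and less RNA per cell cannot be told apart.

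The share of probe sets above the floor ran from 48.0% to 52.0% over the 4 arrays. The brighter PSAT1 probe set, read as a check of the labels, fell from 1760 to 143 under the hairpin in CL1-5, and read 4214 and 5494 in CL1-0 without and with the PSAT1 vector, so that the array labelled for PSAT1 expression was only 1.30-fold above its control. The other PSAT1 probe set read 384 and 107 in CL1-5, 3.58-fold lower with the hairpin. In CL1-0 it read 1509 and 1617, a 1.07-fold difference. The labels call both lines type II alveolar cells. Of 11 listed markers of that type, 10 had a probe set of their own, and 8 of these exceeded the floor on every array. LPCAT1 and ETV5 were brightest, and the surfactant gene SFTPD and the phosphate carrier SLC34A2 were below the floor. The remaining marker, SFTPA1, has only probe sets shared with SFTPA2, which were below the floor on every array. Of 11 listed immune cell markers, 9 had a probe set of their own. Of these 9, 2 exceeded the floor on each array, CD3D and ITGAM, none above 69.2. PTPRC, which all leukocytes carry, read at most 6.56. The summed signal of the 9 ran from 242 to 275. CD68, whose probe set is shared with SNORA67, exceeded the floor on every array. It read 79.2 with vector, 68.2 with PSAT1, 131 with the non-silencing hairpin and 107 with the PSAT1 hairpin. The summed signal of 8 endothelial and fibroblast markers was 816 with vector and 459 with PSAT1 in CL1-0 (COL3A1, a fibrillar collagen, accounting for 312 and 27.4) and 621 and 581 in CL1-5. The part of that collagen difference in the CL1-0 results was not tested.

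PSMB8 was the gene of the list that differed most between the lines and between the CL1-5 arrays. Its signal was 31.8 with vector and 20.9 with PSAT1 in CL1-0, and 365 with the non-silencing hairpin and 1058 with the PSAT1 hairpin in CL1-5. Both CL1-0 arrays were below the floor, so no ratio was taken there. PSMB8 was 2.90-fold higher with the PSAT1 hairpin.

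PSMB9, the other catalytic subunit coded beside a transporter gene, read 357 with vector, 238 with PSAT1, 274 with the non-silencing hairpin and 736 with the PSAT1 hairpin. The PSAT1 hairpin array stood above the other 3. PSMB9 was 2.69-fold higher with the hairpin (log2 ratio 1.43), and its CL1-0 log2 ratio was -0.58, short of 2-fold. PSMB10, the remaining induced catalytic subunit, which lies on another chromosome, had a different course. It read 1717 with vector and 1432 with PSAT1, then 596 and 612 in CL1-5, so that the CL1-5 arrays were nearly equal (log2 ratio 0.04) in the pair where PSMB8 and PSMB9 were higher.

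The standard subunits gave a reference inside the same arrays. PSMB5, the counterpart of PSMB8, had a log2 ratio of 0.02 in CL1-5, and PSMB6, the counterpart of PSMB9, one of -0.11. The log2 ratio of PSMB8 thus exceeded that of PSMB5 by 1.52, and that of PSMB9 exceeded that of PSMB6 by 1.54. PSMB10 and its counterpart PSMB7 had ratios of 0.04 and 0.05. In CL1-0, PSMB9 was 0.50 below PSMB6 on the log2 scale (ratios of -0.58 and -0.08), while PSMB10 and PSMB7 (-0.26 and -0.33) were close. The differences between subunits concern the change between arrays, not how much of each was present.

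PSME1, a chain of the PA28 activator, hardly moved within either line. It read 1485 with vector and 1474 with PSAT1, and 2343 and 2229 on the CL1-5 arrays. Its promoter window holds the same response element letters as those of PSMB8 and PSMB10. The log2 ratios were -0.01 in CL1-0 and -0.07 in CL1-5, the latter the only negative ratio among the 9 genes in that pair.

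**Figure D1:**
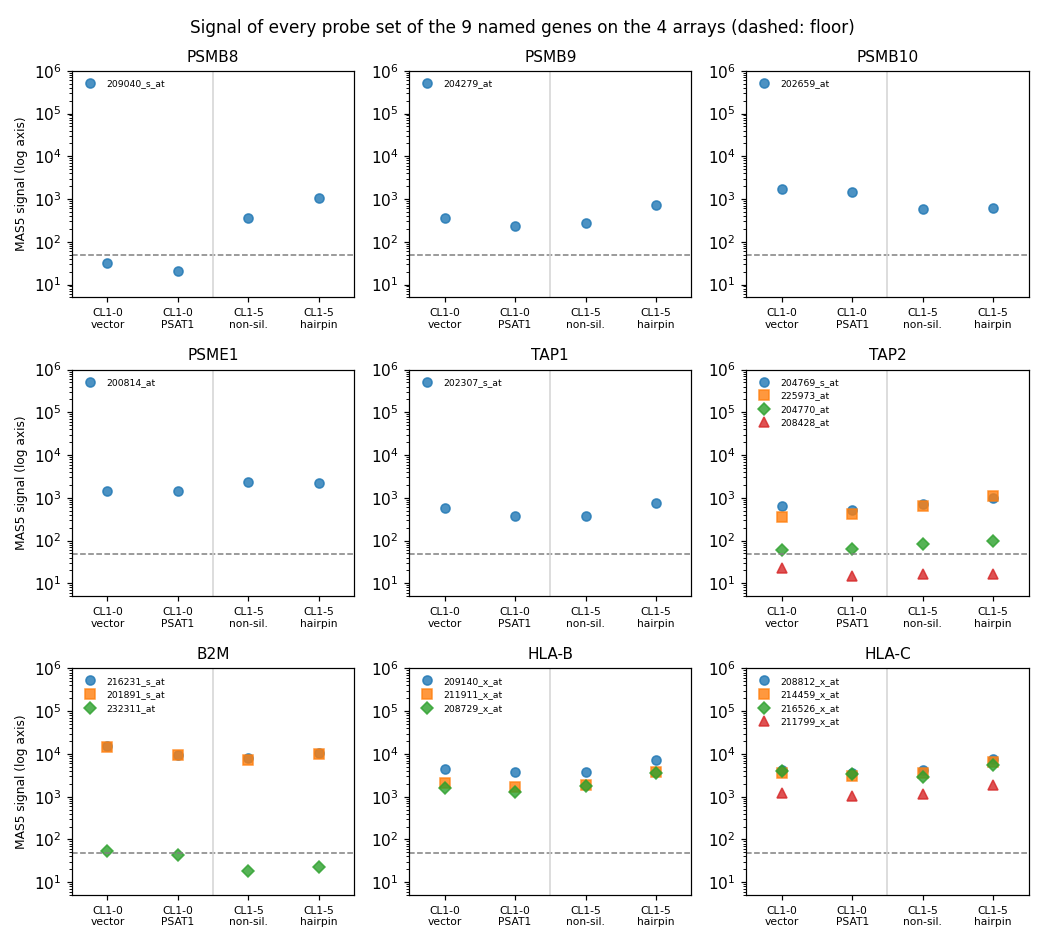
MAS5 signal (log axis, in arbitrary units) of each of the 19 probe sets on the 4 arrays, 1 panel per gene, 1 marker shape per probe set, with the floor of 49.0 dashed. PSMB8 lies below the floor on both CL1-0 arrays and reads 365 and 1058 on the CL1-5 arrays, while PSMB10 is brighter in CL1-0 than in CL1-5.

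TAP1, the transporter chain that shares its upstream region with PSMB9, had a course like that of PSMB9, as did HLA-B and HLA-C. It read 576 with vector, 380.0 with PSAT1, 372 with the non-silencing hairpin and 752 with the PSAT1 hairpin. It was 2.02-fold higher with the hairpin, just past the 2-fold line, and its CL1-0 log2 ratio was -0.60 (1.52-fold). The hairpin array was again the brightest of the 4.

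TAP2, the partner chain of the transporter, had 4 probe sets that did not move alike in CL1-0. The brightest read 645, 515, 715 and 976 in the order vector, PSAT1, non-silencing hairpin and PSAT1 hairpin. The next read 350.3, 413, 656 and 1099, and a dim one 58.7, 64.7, 85.0 and 96.3, while the last was below the floor on every array. In CL1-0 their log2 ratios were -0.33, 0.24 and 0.14, so the sign depended on the probe set. In CL1-5 all 3 measured probe sets were above 0, at 0.45, 0.75 and 0.18, and none reached 2-fold.

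B2M, the light chain, had 2 bright probe sets that agreed closely. They read 15208 and 14484 with vector, 9582 and 9282 with PSAT1, 8032 and 7085 with the non-silencing hairpin, and 10516 and 9739 with the PSAT1 hairpin. On the deposited scale the vector array was the brightest for both. For the CL1-0 pair the log2 ratios were -0.67 and -0.64, and for the CL1-5 pair 0.39 and 0.46, all under 2-fold. The remaining probe set was at 52.2 on the vector array and below the floor on the others, and carries no usable ratio.

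HLA-B and HLA-C, the class I heavy chains, were brightest on the PSAT1 hairpin array in all 7 of their probe sets. All 7 end in _x_at, the suffix for probes that can bind other transcripts, and heavy chain genes share much sequence, so the signals of HLA-B and HLA-C cannot be fully separated. The brightest HLA-B probe set read 4428, 3820.0, 3861 and 7271 in the order given for TAP2. The others read 2062, 1654, 1851 and 3706, and 1574, 1272, 1753 and 3609. Their log2 ratios in CL1-5 were 0.9133, 1.0016 and 1.0419, on both sides of the 2-fold line, and in CL1-0 they were -0.21, -0.32 and -0.31.

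The 4 HLA-C probe sets had log2 ratios from 0.70 to 0.90 in CL1-5 and from -0.25 to -0.20 in CL1-0. The brightest read 4212 with vector, 3658 with PSAT1, 4267 with the non-silencing hairpin and 7471 with the PSAT1 hairpin. For HLA-B and HLA-C alike, the hairpin array was the brightest of the 4 on the deposited scale and under both other scalings.

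**Figure D2:**
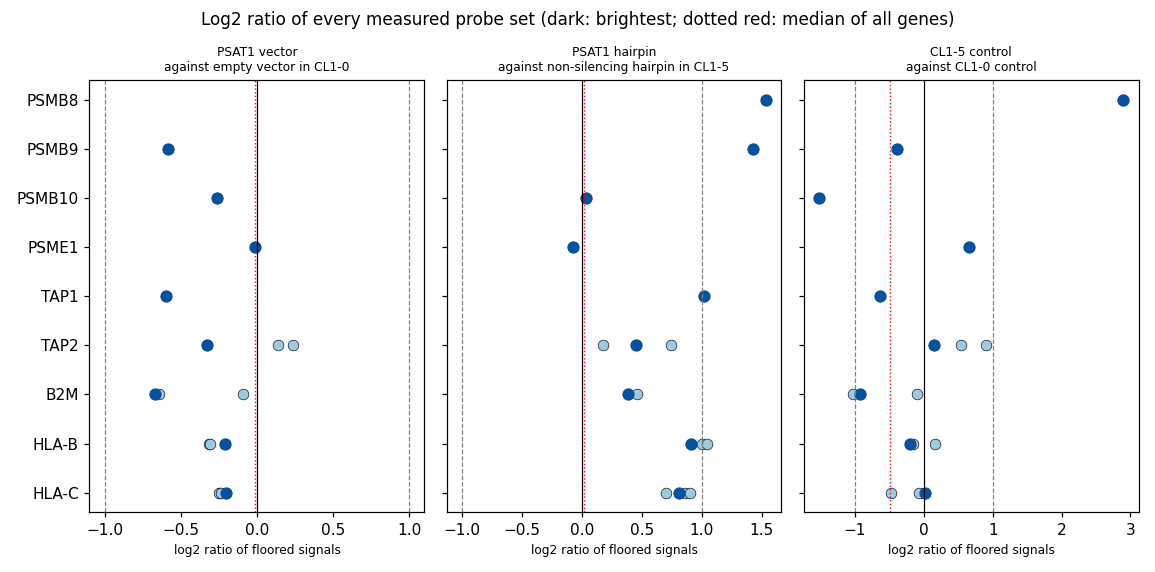
Log2 ratio of floored signals for every measured probe set, 1 row per gene, in the 3 comparisons. Dark points are the brightest probe set of a gene and light points the others. Dashed lines mark 2-fold and the dotted red line is the median of all measured genes. In the CL1-5 pair the dark points of PSMB8, PSMB9 and TAP1 lie past 2-fold and those of HLA-B and HLA-C short of it, with the light HLA-B points at 1.0016 and 1.0419.

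In the CL1-5 pair, 3 of the 9 measured genes were 2-fold higher with the PSAT1 hairpin (PSMB8, PSMB9 and TAP1), against 0.398% of all 12821 measured genes. None was 2-fold lower, against 0.421%. At 1.5-fold, 5 of 9 were higher, with HLA-B and HLA-C added, against 1.67%. Ranked from the largest log2 ratio among the 12821 genes, PSMB8 was number 13, PSMB9 17, TAP1 50, HLA-B 64 and HLA-C 86, with TAP2 at 410 and B2M at 599. PSMB10 and PSME1 lay in the middle of the distribution. Ratios were above 0 for 8 of the 9, as for 52.7% of all measured genes. The median log2 ratio of the 9 genes was 0.81, and that of all measured genes was 0.02. Without the probe sets whose names end in _s_at, _x_at or _a_at, only 4 of the genes were measured, PSMB9 was the 1 that was 2-fold higher, and the median was 0.39.

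In the CL1-0 pair, none of the 8 measured genes was 2-fold higher or lower with PSAT1, where 2.56% and 1.01% of all 13187 measured genes were. B2M and TAP1 were 1.5-fold lower (2 of 8), against 4.06%, and PSMB9 was at 1.497-fold, just outside. All 8 log2 ratios were below 0, as were 51.6% of all measured genes. The exception under another scaling was PSME1, whose ratio was 0.0007 under quantile normalization. TAP2 was above 0 with the mean over probe sets (0.02). It was also above 0 without the probe sets ending in _s_at, _x_at or _a_at (0.24). The median log2 ratio of the 8 genes was -0.29, and that of all measured genes was -0.01. Of the 8 genes measured in both pairs, 7 had a ratio below 0 in CL1-0 and above 0 in CL1-5, against 30.9% of the 11941 genes measured in both pairs, PSME1 being the exception. TAP2 counts among the 7 only by its brightest probe set. In CL1-0, PSMB10 (-0.26), HLA-B (-0.21) and HLA-C (-0.20) lay within the SD between probe sets of 0.302. So did PSMB10 in CL1-5 (0.04, SD 0.179). HLA-B and HLA-C count as separate genes here, though their signals cannot be fully separated. The CL1-0 and CL1-5 pairs share no array.

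Related lists were read in the same way. They were the standard 20S particle (13 measured genes), its 19S regulator (15) and assembly factors and other activators (8). In CL1-5, none of their genes was 2-fold higher or lower, against 0.398% and 0.421% of all measured genes. At such shares a count of 0 in lists this short says little. The medians of the log2 ratios were -0.01, -0.01 and 0.13. In CL1-0, these lists also leaned below 0. All 13 of the 20S genes and 14 of 15 of the 19S genes had negative ratios, with medians of -0.08 and -0.24 (11 and 12 under quantile normalization, 13 and 15 under median centring). The -0.29 median of the loading genes thus lay near that of the 19S regulator. The largest CL1-0 ratios among the proteasome lists were those of the nuclear activator PSME3 (1825 with vector, 1039 with PSAT1, log2 ratio -0.81), the proteasome inhibitor PSMF1 (1479 and 2297, 0.63) and the 19S subunit PSMD12 (6321 and 4159, -0.60).

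Among 8 measured genes of the rest of class I presentation, none reached 2-fold in either pair. Of all measured genes, 0.398% were higher and 0.421% lower in CL1-5, and 2.56% and 1.01% in CL1-0. The largest CL1-5 ratios were those of the nonclassical heavy chains HLA-F (956 with the non-silencing hairpin, 1575 with the PSAT1 hairpin, log2 ratio 0.72), HLA-E (2515 and 3573, 0.51) and HLA-G (1783 and 2425, 0.44). Because heavy chain genes share much sequence, these signals may not be fully separate from those of HLA-B and HLA-C, which was not tested. The chaperones that hold class I molecules for loading, by contrast, had small ratios in CL1-5, with TAPBP at 0.12, CALR at -0.13, CANX at 0.03 and PDIA3 at -0.01. ERAP1, which trims peptides in the endoplasmic reticulum, was at -0.28.

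Class I regulators had no 2-fold member in the CL1-5 pair among 10 measured, against 0.398% higher and 0.421% lower of all measured genes. IRF9, the DNA-binding part of the type I interferon complex, read 839 and 1209 (log2 ratio 0.53), and RFXAP, a subunit of the RFX complex on class I and II promoters, read 241 and 361 (0.58). IRF1 read 122 and 127 (0.05). The largest negative ratios were those of NFKB1 (505 and 404, -0.32) and RFX5 (402 and 345, -0.22). Of the 10 ratios, 7 were above 0 and 3 below. NLRC5, the class I transactivator, read 39.4 and 50.5, on either side of the floor. In CL1-0, IRF1 read 207 with vector and 130 with PSAT1 (-0.68), and IRF9 272 and 238 (-0.19). RFX5 read 1723 and 2269 there (0.40), CREB1 1026 and 828 (-0.31) and NFKB1 411 and 339 (-0.28). Of the 9 regulators measured in CL1-0, 4 had ratios above 0 and 5 below. Of 10 class II presentation genes, 6 were measured in the CL1-5 pair, all with ratios above 0 and a median of 0.34. HLA-DQB1 was the brightest, at 180.3 and 306 (log2 ratio 0.76). HLA-DPA1 was at least 2.12-fold higher with the PSAT1 hairpin (41.2 and 104), 1 of 6, against 0.398% of all measured genes. HLA-DMA was 2.02-fold higher with PSAT1 in CL1-0 (59.6 and 120.5), 1 of 5 measured there, against 2.56%. The HLA-DMA difference fell short of 2-fold under both other scalings. The CL1-0 class II median was 0.46, with 3 ratios above 0 and 2 below, where the median of the loading genes was -0.29. CIITA, the class II transactivator, and HLA-DRA were below the floor on every array.

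**Figure D3:**
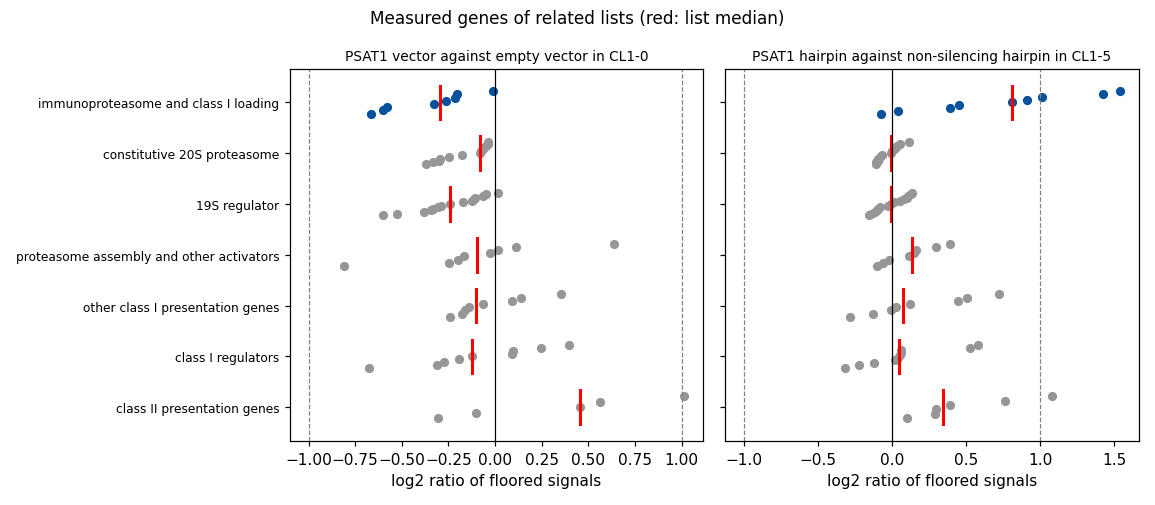
Log2 ratio of floored signals for each measured gene of 7 lists in the CL1-0 and CL1-5 pairs, with the list median in red and dashed lines at 2-fold. The immunoproteasome and class I loading genes, in blue, have medians of -0.29 and 0.81, while the 20S and 19S lists have medians of -0.01 in the CL1-5 pair.

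The response element letters were also counted across the array. In the CL1-5 pair, 17 of 858 measured genes with a match in a window (1.98%) were 2-fold higher with the hairpin, against 22 of 9474 without one (0.232%). In the CL1-0 pair, 22 of 860 genes with a match (2.56%) were 2-fold lower with PSAT1, against 79 of 9749 without (0.810%). In the opposite directions the shares were 0.583% against 0.380% lower in CL1-5, and 2.44% against 2.50% higher in CL1-0. The medians of the log2 ratios with and without a match were 0.01 and 0.01 for CL1-5, and -0.03 and -0.01 for CL1-0. PSMB8 and TAP1 are among the 17. A definition 1 base longer, tried first, was held by 3.57% of windows and gave 3.92% against 0.241% higher in CL1-5 and 4.32% against 0.830% lower in CL1-0. PSMB10 and PSME1 hold the match and had ratios near 0 in CL1-5. The windows of PSMB9, HLA-B and HLA-C hold no match to these letters.

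**Figure D4:**
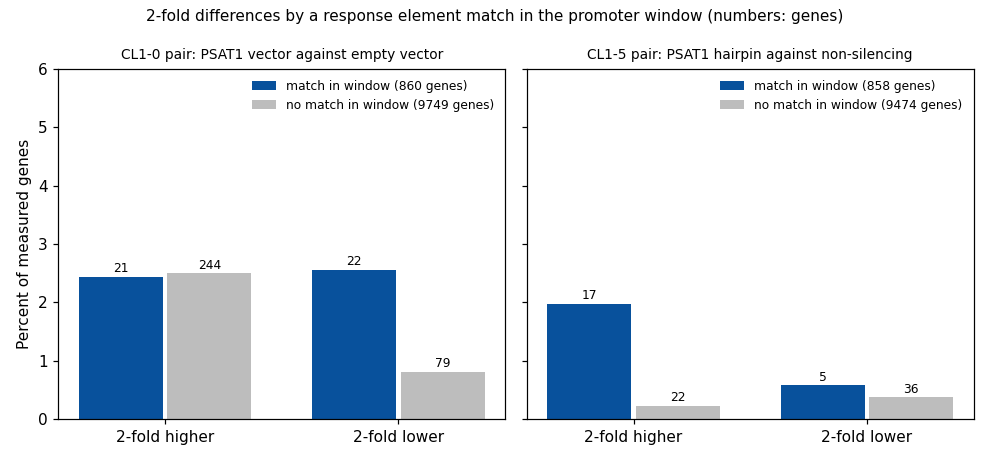
Percent of measured genes 2-fold higher or lower in each pair, for genes with (blue) and without (grey) the response element letters in a promoter window, with the number of genes above each bar. The tallest contrasts are 1.98% against 0.232% higher in the CL1-5 pair and 2.56% against 0.810% lower in the CL1-0 pair.

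The control arrays of the lines were compared last, and share an array with each of the pairs above. The MAS5 scales of the lines differed. The median log2 ratio of all 13720 measured genes, CL1-5 non-silencing over CL1-0 vector, was -0.49, and 17.5% of the 2-fold differences were higher in CL1-5, where quantile normalization gave 51.7% and median centring 54.6%. Ratios are therefore also given relative to that median. PSMB8 was at least 7.44-fold higher in CL1-5 (365 against a CL1-0 signal below the floor), and it was the 1 of 9 genes that was 2-fold higher, against 5.25% of all genes. That bound moves with the floor: the log2 ratio was 2.90 here, 3.52 with a floor at the 25th percentile and 1.85 with one at the 65th. PSMB10 was the 1 that was 2-fold lower (596 against 1717), against 24.8%, but it fell short of 2-fold under both other scalings (log2 ratios of -0.79 and -0.91, against -1.53). PSME1 had a log2 ratio of 0.66, which was 1.14 above that median, and it exceeded 2-fold under both other scalings (1.33 and 1.27).

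The other genes of the list were closer to the median of all genes. Relative to it, TAP2 lay at 0.63, HLA-C at 0.50, HLA-B at 0.29, PSMB9 at 0.10, TAP1 at -0.15 and B2M at -0.44 on the log2 scale. For HLA-B and PSMB9 the unadjusted ratio was below 0 and the quantile normalized one above 0 (-0.20 and 0.43 for HLA-B, -0.38 and 0.22 for PSMB9). TAP1 went from -0.63 to 0.05. No direction between the lines is therefore given for these 3. On the deposited scale the PSAT1 hairpin array was the brightest of the 4 for 6 of the 9 genes, the CL1-0 vector array for B2M and PSMB10, and the CL1-5 non-silencing array for PSME1. Under median centring B2M joined the 6.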

How the data were processed

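Total RNA (6 ug per labelling, per the labels) of 4 stably transduced cultures was measured on 4 arrays. The deposited table holds 1 linear intensity per probe set and array, made by the authors with MAS5, per the submitters' processing notes; its version and scaling target are not given in the sources used here. Detection calls were not used. Of 54675 probe sets, 62 are controls, 41097 have 1 gene symbol, 1801 have several and were not named, and 11777 are unlisted. Symbols were updated through the RefSeq gene table. Y-linked and X-inactivation genes were dropped. Signals were set to a floor (50th percentile, 49.0) and log2 transformed with pandas 2.3.3. A gene was represented by its brightest probe set. The script was tested on simulated data. Alternatives were 2 scalings, 2 floors, the mean over probe sets, and leaving out probe sets that can match several transcripts. The genes named were all 10 listed genes, 8 fixed others, and from each list the genes past 2-fold or up to 4 with the largest ratio. The genes, lists and rules were chosen with earlier results of these data known. Motif definitions were settled after matches had been seen: the response element was shortened by 1 base, from a definition held by 3.57% of windows to one held by 8.11%, so that its letters could be printed, and the NF-kB motif was changed from a looser one held by 25.6% (5 of the 10 genes) to its consensus, held by 11.3% (4 genes). The small number of arrays limits precision, and differences cover culture and labelling too.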

Additional observations from a re-analysis of the deposited data

How the results depend on the processing

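The counts of 2-fold differences in the CL1-0 pair, 0 higher and 0 lower, were the same under all 6 alternatives, and in the CL1-5 pair PSMB8, PSMB9 and TAP1 were 2-fold higher under 5 of them. For these genes the 2 other floors and the mean over probe sets could not change the CL1-5 ratio. Each has 1 probe set, above those floors on both CL1-5 arrays. Without probe sets ending in _s_at, _x_at or _a_at, the CL1-5 count was 1 and the median 0.39, because 4 genes were then measured, and the count higher between the control arrays was 0. Between the control arrays, quantile normalization gave 2 higher, 0 lower and a median of 0.43, and median centring 2, 0 and 0.42, against 1, 1 and -0.20. Of 144 single-gene values under alternatives, 121 moved by less than the SD between probe sets of 1 gene, 23 moved by more, and none past 2-fold changed sign. Many of the 121 could not move. Another floor leaves a ratio unchanged where both signals exceed it, and the mean over probe sets leaves a gene with 1 probe set unchanged. PSMB9, PSMB10 and PSME1 keep their only probe set when the listed suffixes are left out. The tally is therefore no measure of robustness. Over all genes, quantile normalization gave 224 genes 2-fold higher in the CL1-0 pair against 337, and 1307 higher and 1221 lower between the control arrays against 720 and 3402. Median centring gave 1433 and 1193 there. No paired analysis was possible because each group has 1 array. Dim signals near the floor carry only a bound.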

Other observations

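The genes whose course over the 4 arrays was most like that of PSMB9 were sought among 11265 genes above the floor on every array, by the Euclidean distance between log2 signals centred on each gene's own mean, on the deposited scale. With 4 arrays this is a description only. Leaving out the listed loading genes, the 5 nearest were the histone H2B genes H2BC12L (distance 0.336), H2BC6 (0.355) and H2BC12 (0.427), the antisense RNA LSAMP-AS1 (0.426) and the cyclin CCNE2 (0.519). H2BC12L read 2462 with vector, 1330 with PSAT1, 1905 with the non-silencing hairpin and 3982 with the PSAT1 hairpin. Of the loading genes, HLA-B (0.515), HLA-C (0.522) and TAP1 (0.532) lay at about the distance of CCNE2, TAP2 was at 0.719, and PSMB10 was at 2.24. The distances used the same values as the report, so they add no separate evidence that these genes move together.

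The probe set annotated to both PSME2 and a microRNA gene, which was assigned to neither, read 4059 with vector, 3706 with PSAT1, 3900 with the non-silencing hairpin and 4186 with the PSAT1 hairpin, with log2 ratios of -0.13 in CL1-0 and 0.10 in CL1-5.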
